A study of Mus musculus with 2 samples.

Results

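Reg4-high goblet cells without Kit transcript were taken from single-cell RNA sequencing of mouse colon epithelium by the counts of 3 genes. A barcode, which tags the RNA of 1 droplet, was kept with at least 5000 unique molecular identifiers (UMIs, counts of single captured RNA molecules) and at most 25% mitochondrial UMIs. Of the kept barcodes, a member had at least 50 UMIs of Muc2 per 10000, no UMI of Kit and at least 3 UMIs of Reg4. The rule found 211 members among 9329 kept barcodes, 154 of 3963 in the GFP library and 57 of 5366 in the whole epithelium library. Because the members were chosen by their measured Reg4, Kit and Muc2 counts, these levels are given as a description and support nothing.

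The GFP library came from mice with the alleles c-Kit-creERT2 and Rosa26-mTG, given tamoxifen by 1 intraperitoneal injection of 1 mg per 20 g, from which GFP-positive cells were sorted by flow cytometry. In such mice the recombinase is made where Kit is active, and tamoxifen then switches a reporter to GFP in those cells and their descendants. The whole epithelium library came from untreated mice with c-Kit-creERT2 and no reporter named in the labels, and no sort is given for it. Allele, tamoxifen and sort therefore all differ together, and so does sex, by the sex-linked genes given below. Both groups carry c-Kit-creERT2, both used the whole colon, dissociated with EDTA, TrypLE and DNase I, and both were captured with the 10x Genomics 3' v2 chemistry, while ages, the time after tamoxifen and the number of animals per library are not given in the sources used here.

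Goblet cells secrete the gel-forming mucin Muc2, which together with Fcgbp, Clca1, Zg16 and trefoil factor forms the mucus of the colon. In mouse colon, Reg4 and Kit are known as markers of deep crypt secretory cells, goblet-type cells between the stem cells of the crypt base that supply Notch ligands and epidermal growth factor to them, much as Paneth cells do in the small intestine. Atoh1 starts the secretory fate in these lineages and Spdef drives goblet maturation.

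The 4 genes that mark these cells lie on 4 chromosomes, at chr3:98222138-98236748 for Reg4, a secreted C-type lectin, at chr1:174330518-174332877 for Mptx1, a pentraxin of the intestinal mucosa, at chr6:41951628-41956098 for Sval1, a seminal vesicle antigen-like protein, and at chr7:141690340-141754691 for Muc2 (mm10). Their promoters are shown because the genes were measured together in the same cells. The windows run from 250 bases before to 50 bases after the start annotated by RefSeq on GRCm38.p6, all on the plus strand, at chr3:98221906-98222205, chr1:174330268-174330567, chr6:41951378-41951677 and chr7:141690090-141690389. For Reg4 the start used for the window lies inside the gene interval given above. Capitals mark matches, on either strand, to the E-box CAGCTG, the CDX motif TTTATNG, the FOXA motif TGTTTAC and the TATA box TATAAA.
Reg4: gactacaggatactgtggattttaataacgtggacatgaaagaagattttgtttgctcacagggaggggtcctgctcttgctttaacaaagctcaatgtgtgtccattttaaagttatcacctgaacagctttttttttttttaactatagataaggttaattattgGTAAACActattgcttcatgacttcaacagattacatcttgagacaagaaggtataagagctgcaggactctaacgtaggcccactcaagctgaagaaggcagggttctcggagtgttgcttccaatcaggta
Mptx1: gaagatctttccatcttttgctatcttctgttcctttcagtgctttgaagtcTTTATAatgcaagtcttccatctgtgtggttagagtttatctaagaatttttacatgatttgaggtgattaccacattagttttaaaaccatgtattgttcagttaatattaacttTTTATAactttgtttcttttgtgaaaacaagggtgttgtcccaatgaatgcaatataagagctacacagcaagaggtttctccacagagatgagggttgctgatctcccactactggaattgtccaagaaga
Sval1: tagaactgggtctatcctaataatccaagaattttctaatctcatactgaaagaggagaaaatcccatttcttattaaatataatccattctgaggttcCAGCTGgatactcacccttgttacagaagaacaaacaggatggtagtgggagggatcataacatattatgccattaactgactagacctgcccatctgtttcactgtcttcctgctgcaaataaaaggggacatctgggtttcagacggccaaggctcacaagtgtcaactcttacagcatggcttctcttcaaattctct
Muc2: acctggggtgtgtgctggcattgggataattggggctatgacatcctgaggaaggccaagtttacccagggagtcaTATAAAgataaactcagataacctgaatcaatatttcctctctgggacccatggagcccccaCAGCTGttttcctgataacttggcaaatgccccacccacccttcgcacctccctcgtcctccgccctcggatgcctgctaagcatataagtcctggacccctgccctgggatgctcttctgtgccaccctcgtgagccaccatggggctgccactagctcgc
No motif was shared by all 4 windows, and no matches overlapped. The E-box was in the Sval1 and Muc2 windows and in 16.1% of 27025 mouse promoters of the same length. The FOXA motif was in the Reg4 window and in 3.55% of promoters, the TATA box 2 times in the Mptx1 window, 1 time in the Muc2 window and in 14.2% of promoters, and the CDX motif in none of the 4 and in 11.3% of promoters. A match is a description of the letters and not a binding site.

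All deposited barcodes together held 150348319 UMIs (GFP) and 164185392 UMIs (whole epithelium), and kept barcodes had medians of 22268 UMIs (GFP) and 21821 UMIs (whole epithelium). Over kept barcodes Xist was at 734 CPM (UMIs of the gene per 1000000 UMIs) in the GFP library and 0.0683 CPM in the whole epithelium library. The Y-linked Ddx3y had no UMI in the GFP library against 35.0 CPM in the whole epithelium library. By these genes the GFP cells were female and the whole epithelium cells male. Sex thus differs between the libraries too, and its part in any difference between them was not tested. GFP and Cre are not among the features used here, and the sort was not checked directly. The 2 barcode lists share 60 sequences, none of them a member. Each group is 1 library, so no difference between libraries has a replicate check and none was tested. Intervals are exact 95% intervals and cover counting error only.

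Members made up 3.89% of kept barcodes in the GFP library (interval 3.31 to 4.54) and 1.06% in the whole epithelium library (0.805 to 1.37). Among goblet barcodes, those over the Muc2 threshold, the shares were 19.4% of 792 (16.7 to 22.4) in the GFP library and 9.95% of 573 (7.62 to 12.7) in the whole epithelium library. Among goblet barcodes without a Kit UMI they were 32.7% of 471 (28.5 to 37.1) in the GFP library and 35.2% of 162 (27.9 to 43.1) in the whole epithelium library. These shares follow from the counts that the rule used and describe 2 single libraries. In barcodes with little mucin (Muc2 under 10 per 10000), at least 3 Reg4 UMIs were found in 4.17% of 2539 (GFP) and 3.06% of 4353 (whole epithelium). These are kept barcodes that include other cell types, so the share is not a measure of free RNA alone. Among them, 32 GFP and 137 whole epithelium barcodes had at least 20 UMIs of enteroendocrine markers.

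Across depth bins, the share of barcodes without a Kit UMI fell in the whole epithelium library. In the GFP library it hardly changed beyond the shallowest bin. Members had a median of 26275.5 UMIs in the GFP library (5394 to 146153) and 12163 in the whole epithelium library (5090 to 46713), while goblet barcodes with Kit had medians of 26487 (GFP) and 22252 (whole epithelium). Among goblet barcodes with at least 3 Reg4 UMIs, 57.0% of 270 had no Kit UMI in the GFP library (50.9 to 63.0) and 30.2% of 189 in the whole epithelium library (23.7 to 37.2). From the shallowest to the deepest of 4 depth bins the share was 69.6%, 52.5%, 56.2% and 58.2% in the GFP library, and 73.1%, 33.3%, 14.3% and 12.5% in the whole epithelium library, the last of 8 barcodes. Mean Kit UMIs per such barcode were 0.391, 0.593, 0.694 and 0.642 over the same bins in the GFP library and 0.346, 1.51, 2.57 and 3.25 in the whole epithelium library. Relative to depth, Kit was at 52.6, 37.2, 24.9 and 11.2 CPM over these bins in the GFP library. For the whole epithelium library the values were 47.6, 98.6, 103 and 66.4 CPM. Whether barcodes without a Kit UMI lacked Kit RNA was not tested in either library. With every barcode thinned to 5000 UMIs before the rule was applied, 83.0% of 182 lacked Kit in the GFP library and 63.2% of 125 in the whole epithelium library. In the whole epithelium library each comparison of members with Kit-bearing barcodes is therefore also one of shallower with deeper barcodes, and the part of depth in it was not tested beyond the thinned values.

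**Figure D1:**
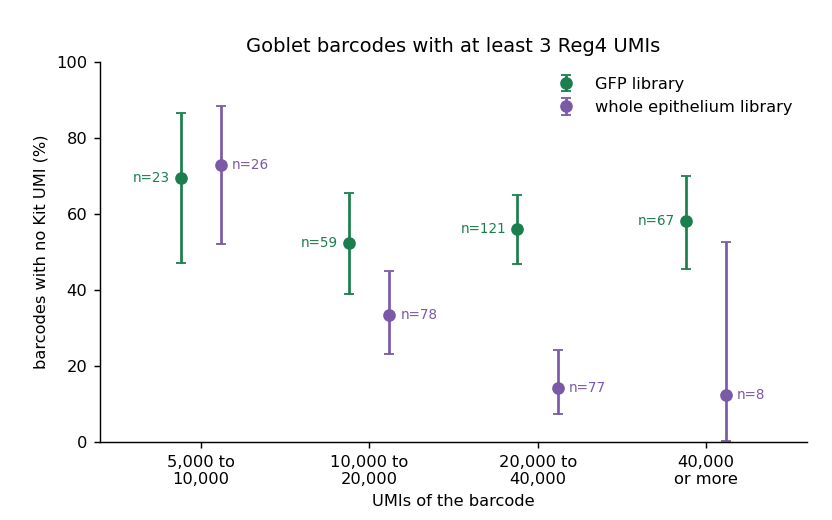
Share of goblet barcodes with at least 3 Reg4 UMIs that had no Kit UMI (vertical axis, percent), in 4 bins of UMIs per barcode (horizontal axis), for the GFP library (left in each bin) and the whole epithelium library; points are shares, bars exact 95% intervals, n the barcodes in the bin. The GFP share lies between 52.5% and 69.6% in every bin, while the whole epithelium share is 73.1% in the shallowest bin and 12.5% in the deepest.

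The Reg4 threshold cut through a range of levels rather than a gap. With exactly 3 Reg4 UMIs, just inside, there were 5 GFP and 15 whole epithelium barcodes, with Mptx1 at 29973 and 5908 CPM. With 2 UMIs, just outside, there were 27 GFP and 9 whole epithelium barcodes, with Mptx1 at 23893 and 30462 CPM. At the Muc2 threshold 10 GFP and 6 whole epithelium members had 50 to 60 Muc2 UMIs per 10000, and 11 GFP and 13 whole epithelium barcodes that met the other criteria had 40 to 50. With 1 Kit UMI and Reg4 as in members there were 77 GFP and 42 whole epithelium barcodes, with Mptx1 at 24348 and 33792 CPM.

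Members had high levels of Mptx1 and Sval1, genes the rule did not use. Mptx1 per barcode had a minimum of 0.957, a median of 150 and a maximum of 2747 UMIs per 10000 in the 154 GFP members, and 0, 77.9 and 2046 in the 57 whole epithelium members. The medians in Reg4-low goblet barcodes without Kit (0 to 2 Reg4 UMIs) were 5.50 in the GFP library and 2.16 in the whole epithelium library, so the medians lay far apart while the ranges overlapped. Sval1 had a median of 9.98 per 10000 in GFP members (0 to 162) and 15.0 in whole epithelium members (0 to 165), against 0.470 and 0.467 in the Reg4-low barcodes of the GFP and whole epithelium libraries. After thinning to 5000 UMIs, Mptx1 was found in 150 of 154 GFP members and 53 of 57 whole epithelium members, and in 82.8% (GFP) and 29.6% (whole epithelium) of barcodes with little mucin, so its detection alone does not mark these cells. For Sval1 these shares were 81.8% and 91.2% in GFP and whole epithelium members, and 13.1% and 6.91% in barcodes with little mucin. Both marker genes were thus found in most members of both libraries.

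**Figure D2:**
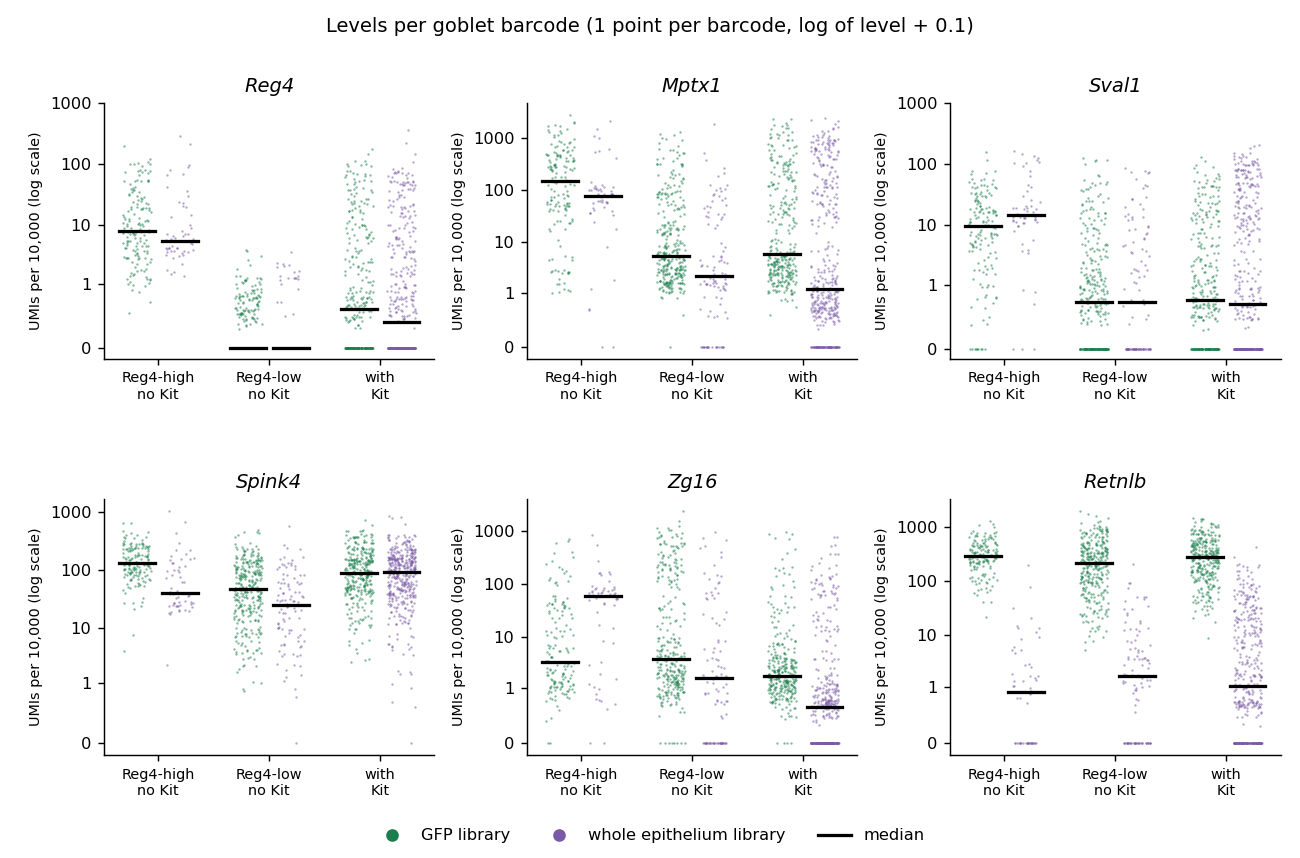
Levels of 6 genes per goblet barcode (vertical axis, UMIs per 10000 on a log scale after adding 0.1) in Reg4-high and Reg4-low barcodes without Kit and in goblet barcodes with Kit, GFP library left and whole epithelium library right in each group; 1 point is 1 barcode and bars are medians. Median Mptx1 is 150 (GFP) and 77.9 (whole epithelium) in Reg4-high barcodes against 5.50 (GFP) and 2.16 (whole epithelium) in Reg4-low ones, and median Retnlb in Reg4-high barcodes is 295 (GFP) and 0.809 (whole epithelium).

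Against Reg4-low goblet barcodes without Kit, members had higher Mptx1, Sval1, Spink4, Best2 and Hoxb13 in both libraries. Of 5380 genes with enough UMIs, 11 were past 2-fold higher in both libraries, which is 0.204%, and 6 were past 2-fold lower, 0.112%. In the GFP library alone 14 were higher and 30 lower, and in the whole epithelium library alone 26 higher and 84 lower. The 11 include Reg4 itself. Mptx1 was at 30727 CPM in members and 7091 CPM in Reg4-low barcodes of the GFP library (log2 ratio 2.12), and at 22573 and 5302 CPM in the whole epithelium library (2.09, interval 2.05 to 2.13). Sval1 had log2 ratios of 1.29 (GFP) and 2.02 (whole epithelium). Spink4, a Kazal-type protease inhibitor of goblet cells, was at 14392 CPM in members and 6692 CPM in Reg4-low barcodes of the GFP library (1.10) and at 14266 and 4947 CPM in those of the whole epithelium library (1.53). Over all alternatives of processing these 3 genes stayed past 2-fold in both libraries, with log2 ratios from 1.01 for Sval1 in the GFP library to 2.76 for Mptx1 in the whole epithelium library.

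Further genes of this list include a channel, 2 transcription factors and sulfotransferases. Best2, the bestrophin anion channel of colonic goblet cells, was at 30.8 CPM in members and 8.73 CPM in Reg4-low barcodes of the GFP library (log2 ratio 1.82) and at 74.1 and 18.6 CPM in the whole epithelium library (1.99). Hoxb13, a homeobox factor of the posterior body, was at 124 and 30.9 CPM in the GFP library (2.01) and at 197 and 88.5 CPM in the whole epithelium library (1.16, 0.82 over the lowest alternative). After thinning, Hoxb13 was found in 38.3% of GFP members and 68.4% of whole epithelium members, against 31.9% and 31.3% of barcodes with little mucin in the GFP and whole epithelium libraries, so it is not limited to goblet barcodes. Tcf7l1, a transcription factor of the Wnt pathway, had ratios of 1.48 (GFP) and 1.66 (whole epithelium). Ttr, which encodes the carrier transthyretin, had 1.21 (GFP) and 2.43 (whole epithelium). Gal3st2 (1.33 GFP, 1.36 whole epithelium) and Gal3st2c (1.90 GFP, 2.58 whole epithelium) encode sulfotransferases that act on galactose. They are near-identical copies whose reads can be split, and each rested on 17 to 76 UMIs per group.

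The 6 genes past 2-fold lower in members of both libraries include the glycan genes Cmah and B3gnt6 and the crypt base gene Cd44. Whole epithelium members held 810244 UMIs against 1559028 in Reg4-low barcodes, so a gene could pass the filter through the Reg4-low barcodes. With at least 200 UMIs per gene 0 were lower, and with at least 10000 UMIs per barcode 2 were lower. Cmah, which makes N-glycolylneuraminic acid, was at 13.4 CPM in members and 40.0 CPM in Reg4-low barcodes of the GFP library (log2 ratio -1.58) and at 11.1 and 28.2 CPM in the whole epithelium library (-1.35, on 9 UMIs in members). B3gnt6, the synthase of core 3 O-glycans, had ratios of -1.37 (GFP) and -1.33 (whole epithelium). Cd44, a hyaluronan receptor of crypt base cells, had -1.04 (GFP) and -2.17 (whole epithelium, on 6 UMIs in members). Aqp1, a water channel, had -1.03 (GFP) and -1.66 (whole epithelium), the potassium channel gene Kcnh3 had -1.10 (GFP) and -1.19 (whole epithelium), and Apol9b, an interferon-induced apolipoprotein L gene, had -1.20 (GFP) and -1.38 (whole epithelium). The chemokine gene Ccl6 fell just short of 2-fold, with 0.99 (GFP) and 0.89 (whole epithelium), as did the antibacterial lectin genes Reg3b, with -0.96 (GFP) and -0.88 (whole epithelium), and Reg3g, with -0.87 (GFP) and -0.96 (whole epithelium).

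**Figure D3:**
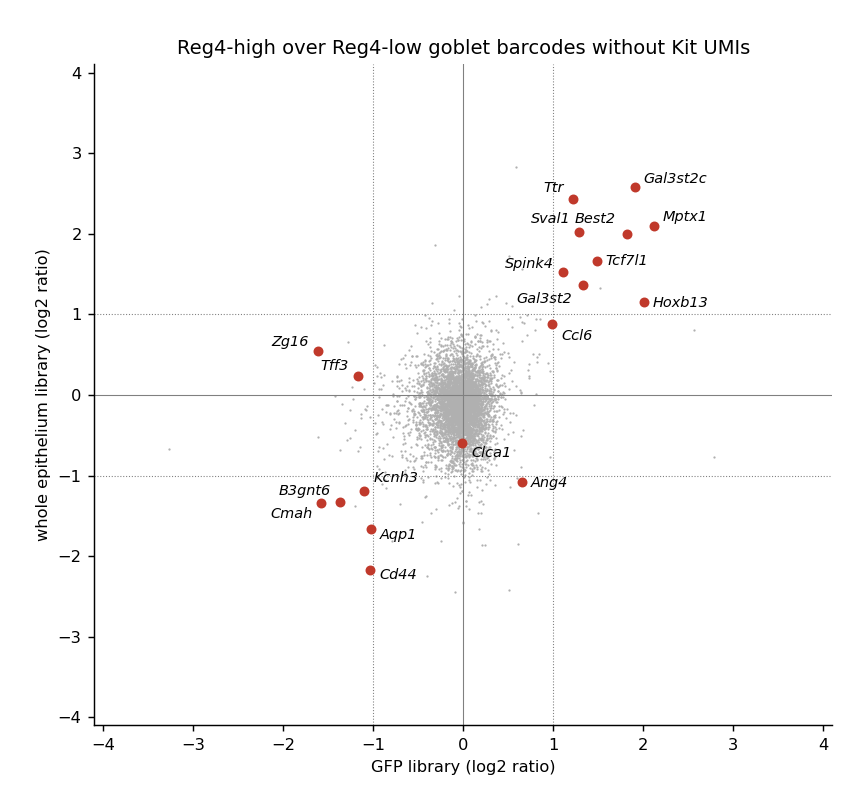
Log2 ratio of each gene in Reg4-high over Reg4-low goblet barcodes without Kit, in the GFP library (horizontal axis) and the whole epithelium library (vertical axis); 1 grey point is 1 gene, red points are named genes, dotted lines mark 2-fold and Reg4 is left out. Mptx1 lies at 2.12 (GFP) and 2.09 (whole epithelium), and Zg16 at -1.62 (GFP) and 0.54 (whole epithelium), on opposite sides.

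As groups, the secreted mucus genes were not uniformly higher in members than in Reg4-low barcodes. Of 12 mucus genes 5 were higher and 3 lower in both libraries (median log2 ratio 0.01 GFP, 0.15 whole epithelium), beside medians of -0.03 (GFP) and -0.11 (whole epithelium) over all 5380 genes. Zg16, a lectin-like protein that binds Gram-positive bacteria, was at 3685 CPM in members and 11325 CPM in Reg4-low barcodes of the GFP library (-1.62), but at 9165 and 6306 CPM in the whole epithelium library (0.54). Tff3, the trefoil factor, had -1.17 (GFP) and 0.24 (whole epithelium, -0.39 over the lowest alternative). Of 17 measured O-glycosylation genes 10 were lower and 2 higher in both libraries (-0.21 GFP, -0.26 whole epithelium), and of 18 interferon response genes 10 were lower and 1 higher (-0.55 GFP, -0.35 whole epithelium). Genes of crypt surface maturation, 8 of 12 lower and none higher (-0.42 GFP, -0.12 whole epithelium), and colonocyte markers, 7 of 11 lower and 1 higher (-0.50 GFP, -0.12 whole epithelium), moved with these, and their part was not tested. Of all 5380 genes 1991 were lower and 832 higher in both libraries.

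The secretory fate factors showed no common direction between members and Reg4-low barcodes. Of 13 measured, 5 were higher and 4 lower in both libraries (medians 0.07 GFP, -0.09 whole epithelium). Atoh1 had log2 ratios of 0.32 (GFP) and 0.51 (whole epithelium), and Spdef -0.30 (GFP) and -0.69 (whole epithelium), signs that held over all alternatives. All 4 measured MHC class II genes were higher in both libraries (0.68 GFP, 0.83 whole epithelium, -0.87 over its lowest alternative), with Cd74, the invariant chain, at 0.65 (GFP) and 0.67 (whole epithelium) and H2-Eb1 at 0.80 (GFP) and 0.01 (whole epithelium).

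Within the members and their Reg4-low neighbours, Mptx1, Spink4 and Hoxb13 went up with Reg4 in the GFP library in steps, and Sval1 did so from the band of 3 to 4 Reg4 UMIs on. Over bands of 0 to 2, 3 to 4, 5 to 9, 10 to 19 and at least 20 Reg4 UMIs, of 317, 17, 34, 22 and 81 barcodes, GFP Mptx1 was at 7091, 11856, 12580, 25651 and 42907 CPM. Spink4 was at 6692, 8269, 11253, 13445 and 17106 CPM and Hoxb13 at 30.9, 42.9, 63.4, 90.0 and 173 CPM in the same bands, and both increased at each step, though with counts thinned to 5000 UMIs Hoxb13 was at 82.4 CPM in the band of 5 to 9 and 72.7 CPM in that of 10 to 19. Sval1 was at 590, 429, 612, 1406 and 1984 CPM. In the whole epithelium library, with 105, 24, 13, 4 and 16 barcodes, Mptx1 was at 5302, 6576, 23996, 90704 and 20171 CPM, so the level peaked in the band of 4 barcodes. Spink4 there was at 4947, 3562, 3301, 11065 and 28367 CPM, lower in the next 2 bands than in the lowest. Muc2 was lower in the top band than in the lowest in both libraries, at 12996 against 21134 CPM (GFP) and 12892 against 15930 CPM (whole epithelium). Median UMIs per barcode in the lowest and the top band were 24421 and 28449 in the GFP library, and 9482 and 19867.5 in the whole epithelium library, so the bands also follow depth, more so in the whole epithelium library.

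Among members alone, Reg4 per barcode had rank correlations of 0.43 with Mptx1, 0.55 with Sval1, 0.50 with Spink4 and 0.45 with Hoxb13 over the 154 GFP barcodes. Over the 57 whole epithelium barcodes the rank correlation of Reg4 was -0.04 with Mptx1, 0.29 with Sval1, 0.74 with Spink4 and 0.12 with Hoxb13. Mptx1 and Sval1 had 0.65 (GFP) and 0.43 (whole epithelium). These barcodes share a library, and levels per 10000 share a denominator, so the values are descriptions. In the whole epithelium library 5 members held 67.2% of all Reg4, 67.5% of all Mptx1 and 84.7% of all Retnlb UMIs of its members, and summed levels there rest on few cells.

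**Figure D4:**
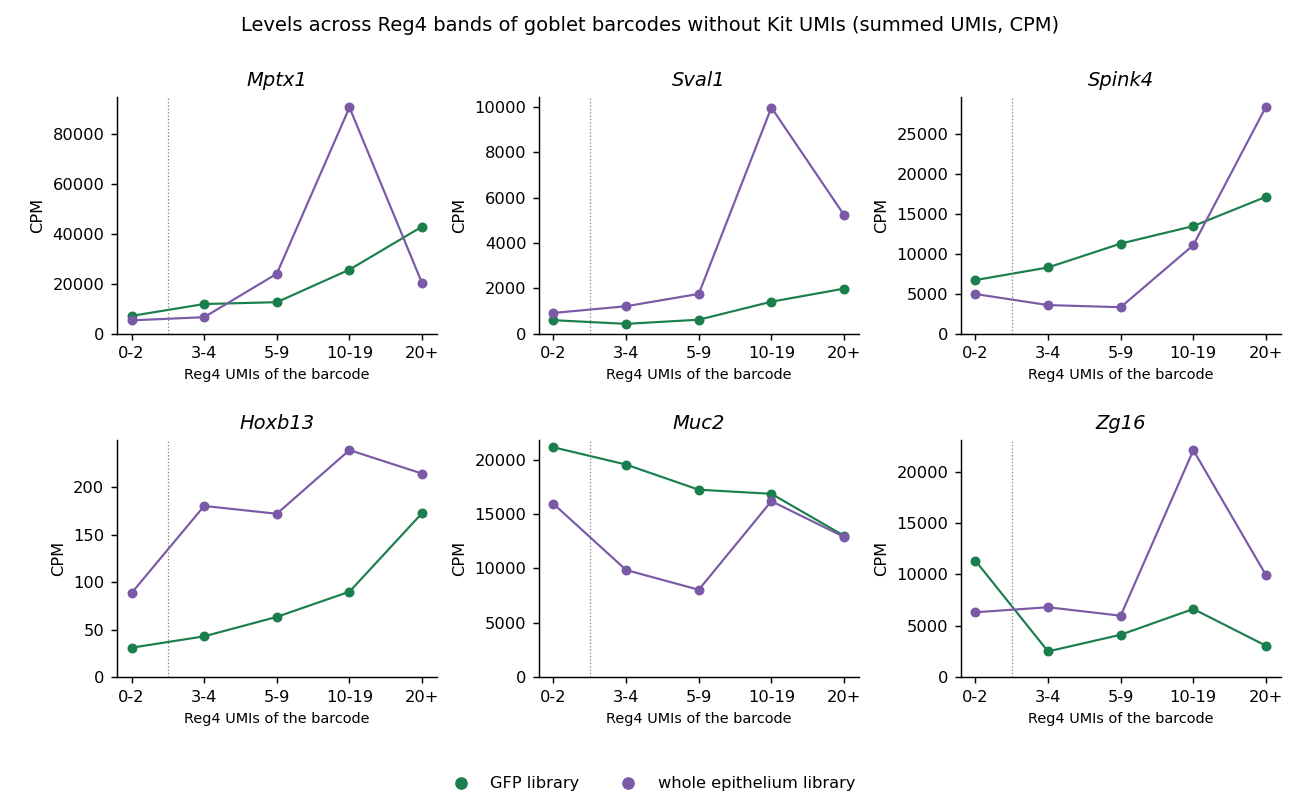
Summed level (vertical axis, CPM from 0) of 6 genes in goblet barcodes without Kit, by Reg4 UMIs of the barcode (horizontal axis), in the GFP and whole epithelium libraries; the dotted line separates Reg4-low barcodes from members. GFP Mptx1 increases at each step, to 42907 CPM at 20 or more Reg4 UMIs against 7091 CPM at 0 to 2, while whole epithelium Mptx1 peaks at 90704 CPM in a band of 4 barcodes.

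Members and all goblet cells with Kit, many of which had little Reg4, differed in genes of the crypt base, of glycans and of mucus. Of 9494 genes 54 were past 2-fold lower in members of both libraries, 0.569%, and 11 were past 2-fold higher, 0.116%. This balance depends on the filter, since whole epithelium members held 810244 UMIs against 10671163 in Kit-bearing barcodes, so that a gene could pass through the Kit-bearing barcodes alone, and with at least 1 UMI per gene 83 were lower and 143 higher. Kit and Reg4 are among them by the rule. Cd24a, a surface antigen of crypt base secretory cells, was at 333 CPM in members and 616 CPM in Kit-bearing barcodes of the GFP library (log2 ratio -0.89) and at 362 and 905 CPM in the whole epithelium library (-1.32). Cmah had -1.89 (GFP) and -2.91 (whole epithelium), Aqp1 -1.47 (GFP) and -2.54 (whole epithelium), Cd44 -1.34 (GFP) and -2.62 (whole epithelium), and B3gnt6 -1.57 (GFP) and -1.73 (whole epithelium). The nicotinic receptor subunit gene Chrnb4, at -2.04 (GFP) and -2.84 (whole epithelium), and the homeobox gene Hoxb8, at -1.84 (GFP) and -1.68 (whole epithelium), rested on 2 to 21 UMIs in members.

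The genes higher in members than in Kit-bearing goblet barcodes were Sval1 (log2 ratio 1.17 GFP, 1.27 whole epithelium), Hoxb13 (1.07 GFP, 1.08 whole epithelium), Gal3st2 (1.26 GFP, 1.38 whole epithelium) and Gal3st2b (1.13 GFP, 1.34 whole epithelium), the protease inhibitor Spink1 (1.32 GFP, 1.11 whole epithelium), the inhibitor heavy chain gene Itih5 (1.19 GFP, 1.42 whole epithelium) and the epithelial cytokine Il18 (1.48 GFP, 1.00 whole epithelium). Nxpe4, Sprr1a and Gatm also passed, each on 8 to 12 UMIs in whole epithelium members and each with a reversed sign there under an alternative. Of 12 mucus genes 8 were higher and 4 lower in both libraries (median 0.30 GFP, 0.49 whole epithelium). Fcgbp had 1.00 (GFP) and 2.21 (whole epithelium), Clca1 0.99 (GFP) and 2.04 (whole epithelium), and Zg16 0.56 (GFP, -0.42 over its lowest alternative) and 2.25 (whole epithelium). Agr2, at -0.37 (GFP) and -0.46 (whole epithelium), and the kallikrein gene Klk1, at -0.21 (GFP) and -0.34 (whole epithelium), were among the lower. Mptx1 had 1.06 (GFP) and 0.73 (whole epithelium), and Spink4 0.35 (GFP) and 0.46 (whole epithelium, -0.14 over its lowest alternative).

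By group, fate, stem and glycosylation genes were mostly lower in members than in goblet barcodes with Kit. Of 18 secretory fate genes 14 were lower in both libraries (median log2 ratio -0.34 GFP, -0.44 whole epithelium), with Spdef at -0.62 (GFP) and -1.16 (whole epithelium), Sox9 at -0.38 (GFP) and -1.50 (whole epithelium) and Sox4 at -0.82 (GFP) and -1.08 (whole epithelium). Of 14 stem and Wnt genes 11 were lower in both (-0.37 GFP, -0.66 whole epithelium), and of 19 O-glycosylation genes 16 (-0.49 GFP, -0.69 whole epithelium), among them Galnt7, a starter of O-glycans, at -0.53 (GFP) and -0.58 (whole epithelium). Genes of crypt surface maturation went the other way, 9 of 13 higher in both (0.35 GFP, 0.92 whole epithelium). Colonocyte markers moved with them, 7 of 11 higher in both (0.30 GFP, 0.77 whole epithelium), and their part was not tested. Over all 9494 genes 3961 were lower and 1807 higher in both, with medians of -0.07 (GFP) and -0.12 (whole epithelium).

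Goblet barcodes with Kit include many with little Reg4, so members were also set beside the 116 GFP and 132 whole epithelium barcodes that had Kit and at least 3 Reg4 UMIs, a comparison chosen after the data had been seen. Members had medians of 21.5 (GFP) and 6 (whole epithelium) Reg4 UMIs, against 32.5 (GFP) and 28 (whole epithelium) in these Kit-bearing barcodes, whose median depths were 25662.5 (GFP) and 20700 (whole epithelium) UMIs. In the GFP library the markers were near equal, with log2 ratios of -0.07 for Mptx1, -0.03 for Sval1, -0.02 for Hoxb13 and -0.26 for Spink4. In the whole epithelium library they were -0.90, -0.31, -0.24 and -0.16 in the same order. The higher Mptx1 and Sval1 of members over all Kit-bearing goblet barcodes was not seen where both groups were Reg4-high. The same held for the higher Gal3st2 (-0.07 GFP, 0.02 whole epithelium) and, in the GFP library, for the lower Hoxb8 (0.06). In the whole epithelium library Hoxb8 (0.14, on 4 UMIs in members) had an interval of -1.94 to 1.83, too wide to tell. Cd44 (-0.31 GFP, -0.86 whole epithelium) and B3gnt6 (-0.24 GFP, -0.53 whole epithelium) had intervals that include 0. Cmah (-1.05 GFP, -2.11 whole epithelium) and Aqp1 (-0.48 GFP, -1.24 whole epithelium) stayed lower, and Il18 (1.32 GFP, 1.27 whole epithelium) higher. No value of this comparison was recomputed under other settings or at equal depth.

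Against Reg4-high goblet barcodes with Kit, most measured genes of crypt surface maturation and of the interferon response were higher in members of both libraries, and most of protein folding, O-glycosylation and secretory fate were lower. The 12 mucus genes were divided, 6 higher and 6 lower in both libraries (median log2 ratio -0.04 GFP, -0.03 whole epithelium), with Muc2, which the rule used, at -0.14 (GFP) and -0.44 (whole epithelium) and Agr2, a protein disulfide isomerase of goblet cells, at -0.26 (GFP) and -0.60 (whole epithelium). Zg16 was at 3685 CPM in members and 1277 CPM in Kit-bearing barcodes of the GFP library (log2 ratio 1.53, 1.48 to 1.58) and at 9165 and 3568 CPM in the whole epithelium library (1.36, 1.32 to 1.40). Fcgbp had 0.60 (GFP) and 1.30 (whole epithelium), Clca1 0.56 (GFP) and 1.13 (whole epithelium), and the membrane mucin gene Muc3 0.64 (GFP) and 1.68 (whole epithelium). Reg3b had 1.05 (GFP) and 1.13 (whole epithelium), and Gsdmc2, a gasdermin gene with close copies, 1.02 (GFP) and 1.49 (whole epithelium). Of 12 measured genes of crypt surface maturation 10 were higher in both libraries (0.48 GFP, 1.16 whole epithelium), and of 16 interferon response genes 14 (0.28 GFP, 1.12 whole epithelium), beside 1706 higher and 2203 lower in both of all 6607 genes. Colonocyte markers, 8 of 10 higher in both (0.33 GFP, 1.47 whole epithelium), moved with these groups. The mitochondrial genes mt-Atp6 (-0.20 GFP, 0.57 whole epithelium) and mt-Cytb (-0.19 GFP, 0.41 whole epithelium) were higher in members of the whole epithelium library and not of the GFP library. The part of either in the result was not tested.

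On the lower side, 21 of 23 genes of protein folding in the endoplasmic reticulum were lower in members of both libraries, by small amounts (median log2 ratio -0.21 GFP, -0.38 whole epithelium). The chaperone gene Hspa5 was at -0.12 (GFP) and -0.32 (whole epithelium). Of 18 O-glycosylation genes 14 were lower (-0.30 GFP, -0.49 whole epithelium) and of 15 secretory fate genes 12 (-0.24 GFP, -0.26 whole epithelium), beside medians of -0.02 (GFP) and -0.05 (whole epithelium) over all genes, of which 2203 of 6607 were lower in both. Genes of granule release, 3 higher and 5 lower of 10 (0.02 GFP, -0.06 whole epithelium), and of anion secretion, 4 higher and 4 lower of 10 (0.08 GFP, 0.14 whole epithelium), were divided. Atoh1 had -0.56 (GFP) and -0.56 (whole epithelium), Creb3l1, a factor of secretory capacity, -0.37 (GFP) and -0.98 (whole epithelium), and Sox9 -0.38 (GFP) and -1.48 (whole epithelium). Best2, which was higher in members than in Reg4-low barcodes, was lower here, at -0.58 (GFP) and -0.89 (whole epithelium). The Notch ligand gene Dll1 was at -0.98 (GFP) and -1.55 (whole epithelium), and Dll4 at -1.52 (GFP) and -0.14 (whole epithelium, an interval that includes 0), on 6 to 30 UMIs in members.

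Between libraries, members had higher Retnlb and Ang4, mitosis and MHC class II genes in the GFP library, and lower interferon response and dissociation stress genes. Of 7989 genes, 449 were past 2-fold higher in GFP members, 5.62%, and 299 past 2-fold lower, 3.74%, with a median log2 ratio of 0.08. This balance depends on the filter. GFP members held 4777425 UMIs against 810244 in whole epithelium members, so a gene could pass through the GFP members alone. With at least 1 UMI per gene 912 were higher and 1310 lower, and with at least 200 UMIs 85 were higher and 113 lower. Retnlb, a bactericidal resistin-like protein, was at 34290 CPM in GFP members and 1268 CPM in whole epithelium members (log2 ratio 4.76, 4.67 to 4.85), with medians of 295 and 0.809 per 10000 per barcode. Every GFP member had at least 22.1 per 10000, while the whole epithelium members reached from 0 to 203. Ang4, an antimicrobial ribonuclease, was at 6396 CPM (GFP) and 98.7 CPM (whole epithelium), a log2 ratio of 6.02, and the peroxidase gene Lpo at 191 CPM (GFP) and 12.3 CPM (whole epithelium), 3.95. In barcodes with little mucin Retnlb was at 832 CPM (GFP) and 18.3 CPM (whole epithelium), so this difference is not particular to members.

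The defence list as a whole was divided, and so were mucus genes. Of 10 measured defence genes 6 were higher in GFP members, 5 of them past 2-fold (median log2 ratio 1.08, -0.074 with at least 100 Muc2 UMIs per 10000). Itln1, an intelectin, was at 86.9 CPM (GFP) and 13.6 CPM (whole epithelium), while Reg3b was at 640 CPM (GFP) and 2582 CPM (whole epithelium, log2 ratio -2.01, but -0.22 with at least 10 Reg4 UMIs). Of 12 mucus genes 6 were higher and 6 lower (0.00). Clca1 was at 6099 CPM in GFP members and 1369 CPM in whole epithelium members (2.16), whereas Zg16 (-1.31) and Tff3 (-1.22) were lower in GFP members. Among the markers, Sval1 was at 1443 CPM (GFP) and 3685 CPM (whole epithelium, -1.35), and Mptx1 had 0.44, with -0.03 to 0.82 over the alternatives. Spink4 was at 14392 CPM (GFP) and 14266 CPM (whole epithelium).

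Fate factors were not shifted together between libraries, with 8 of 15 higher in GFP members (median log2 ratio 0.00). Atoh1 was at 90.6 CPM in GFP members and 184 CPM in whole epithelium members (-1.02), and Creb3l4 at 61.5 and 115 CPM (-0.90). Spdef was at 177 CPM (GFP) and 118 CPM (whole epithelium, 0.58), and Sox4 at 65.3 and 33.3 CPM (0.97). After thinning, Atoh1 was found in 36.4% of GFP members and 35.1% of whole epithelium members, and Spdef in 53.9% and 36.8%. The Atoh1 difference in summed level was thus not seen in its detection.

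Mitosis genes were higher in GFP members without exception, 17 of 17 and 15 past 2-fold (median log2 ratio 1.35 in members, against 0.17 in Reg4-low and 0.87 in Kit-bearing goblet barcodes). Ube2c, which drives exit from mitosis, was at 153 CPM in GFP members and 33.3 CPM in whole epithelium members (2.20), and the proliferation marker Mki67 at 114 and 53.1 CPM (1.10). At least 20 UMIs over the 17 genes were found in 47 of 154 GFP members and 2 of 57 whole epithelium members, at unequal depth. After thinning, Mki67 was found in 40 of 154 GFP members and 13 of 57 whole epithelium members. The median of the list was 1.81 with all counts thinned before the rule was applied, which also changed the members. It was 0.98 to 2.28 over the alternatives. Within libraries, the 9 mitosis genes measured against Reg4-low barcodes were all higher in GFP members (0.23) and all lower in whole epithelium members (-0.93).

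Immune and stress programmes differed between libraries in members much as in other goblet barcodes. Interferon response genes were lower in GFP members in 18 of 18, 11 past 2-fold. Their median log2 ratio was -1.25 in members, -1.23 in Reg4-low and -1.11 in Kit-bearing goblet barcodes. In members it was -0.20 with all counts thinned before the rule was applied, which also changed the members and the genes measured. Ifi27l2b, which has a close copy, was at 19.3 CPM in GFP members and 460 CPM in whole epithelium members (-4.58). For MHC class II, GFP members had 6 of 7 measured genes higher, 5 past 2-fold, with medians of 1.46 in members, 1.53 in Reg4-low and 1.52 in Kit-bearing barcodes, and Cd74 at 731 CPM (GFP) and 257 CPM (whole epithelium) in members. Genes of dissociation stress were lower in 20 of 22, 14 past 2-fold, with medians of -1.11 in members, -0.91 in Reg4-low and -1.03 in Kit-bearing barcodes, and Jun at 724 CPM (GFP) and 1957 CPM (whole epithelium). Mitochondrial UMIs, a sign of RNA quality, had medians of 6.01% in GFP members and 10.1% in whole epithelium members, and their part in these results was not tested.

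**Figure D5:**
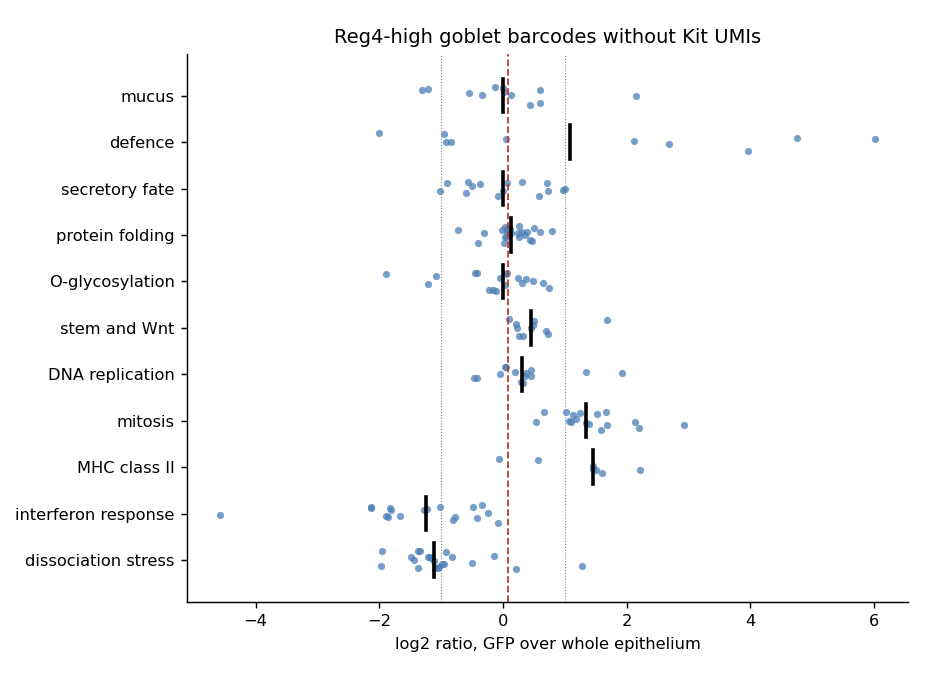
Log2 ratio of GFP over whole epithelium members (horizontal axis) for the genes of 11 lists (rows); 1 point is 1 gene, black bars are list medians, the dashed line is the median of all 7989 genes (0.08) and dotted lines mark 2-fold. The median is 1.35 for mitosis, 1.46 for MHC class II, -1.25 for the interferon response and -1.11 for dissociation stress.

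Other genes far apart between libraries in members were Ceacam10 at 456 CPM (GFP) and 56.8 CPM (whole epithelium, log2 ratio 3.01), and Pnliprp2, a lipase gene, at 49.4 and 2.47 CPM (4.32). Pla2g4c, Egln3 and Tac1 had log2 ratios of 4.13 to 4.89, each on 1 UMI in whole epithelium members. Lower in GFP members were Clec2h, at 72.8 CPM (GFP) and 364 CPM (whole epithelium, -2.32), Hsd11b2, which inactivates glucocorticoids, at 274 and 1038 CPM (-1.92), Insig1, a regulator of sterol synthesis (-2.13), and Fabp6, the ileal bile acid binding protein (-2.83, but -0.13 with at least 10 Reg4 UMIs). Xist had 3598 UMIs in GFP members and none in whole epithelium members. With a floor of 3 UMIs over the group the log2 ratio was 7.67, and the lower limit of its interval was 7.37.

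Among markers of other cell types, those of colonocytes were found throughout the members, with 20 or more UMIs in 147 of 154 GFP members and 50 of 57 whole epithelium members. All 12 had a UMI, and they summed to 3200 CPM in GFP members and 5028 CPM in whole epithelium members, against 14104 and 10404 CPM in barcodes with little mucin of the GFP and whole epithelium libraries. Reg4-low barcodes had 20 or more colonocyte marker UMIs in 307 of 317 (GFP) and 94 of 105 (whole epithelium). Goblet barcodes with Kit did in 309 of 321 (GFP) and 380 of 411 (whole epithelium), so this is not particular to members. Enteroendocrine markers summed to 548 CPM (GFP, 13 of 13 with a UMI) and 549 CPM (whole epithelium, 11 of 13, Pax6 and Fev at 0), but only 5 GFP and 3 whole epithelium members had 20 or more of these UMIs. The granin gene Chgb (229 CPM in GFP members, 1.23 CPM in whole epithelium members) drew 98.0% of its GFP UMIs, and the hormone gene Sct (44.8 CPM in GFP members, 488 CPM in whole epithelium members) 98.0% of its whole epithelium UMIs, from 5 members each. T and NK markers were at 1.67 CPM (GFP, 4 of 13 with a UMI) and 24.7 CPM (whole epithelium, 9 of 13), with Trac at 0 in both. Stromal markers were at 0.837 CPM in GFP members (3 of 10) and 0 in whole epithelium members, with Col1a1 at 0 in both. Tuft markers were at 11.9 CPM (GFP, 8 of 13) and 3.70 CPM (whole epithelium, 2 of 13), with Pou2f3 and Trpm5 at 0 in both.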

How the data were processed

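Each of the 2 groups has 1 library of single-cell 3' counts. The deposited files hold UMI counts per gene and barcode, not normalized, made by the authors with Cell Ranger 2.1.1 on mm10 per the submitters' processing notes, while the matrix header names 3.1.0. Settings of the cell calling are not given in the sources used here. The records cross matrices and barcode lists between samples, so each matrix was assigned by its number of barcodes, and every direction between libraries rests on that.

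UMIs were summed per group and scaled to CPM. Log2 ratios carry exact 95% intervals, conditional binomial for ratios, Poisson for sums and Clopper-Pearson for shares. Genes needed 50 UMIs over both groups in GFP over whole epithelium, or 50 UMIs per library within libraries, and called means past 2-fold, in both libraries within libraries. A group at 0 was set to a floor of 3 UMIs. Thinning drew 5000 UMIs per barcode (seed 7). The ratio step was run on simulated sums drawn with counting error alone. These hold no spread between cells, so the run does not test that spread. No doublet caller was run and doublets were kept. An alternative left out barcodes above the 90th percentile of depth.

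Members and lists were chosen with earlier results of these data known. The genes named are those of the fixed lists (5 lists in full, up to 2 most abundant and 2 most different of each other list), the 12 highest and 12 lowest per comparison with enough UMIs, and the 10 most abundant, without Gm and Rik models and the 35 symbols that occur more than once among 31053 genes. The comparison with Kit-bearing Reg4-high barcodes was added after seeing the data and was not recomputed under other settings. Shares and the other comparisons were recomputed under 12 other settings and 3 more chosen after seeing the data. Muc17 and Prac1 are not among the features used. One gene past 2-fold over Reg4-low barcodes is not reported here. Python 3.11.15, numpy 2.4.6, pandas 2.3.3, scipy 1.17.1 and matplotlib 3.10.9 were used.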

Additional observations from a re-analysis of the deposited data

Results flagged for a closer look

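Some genes lay on opposite sides in the 2 libraries when members were compared with other goblet barcodes of their own library. In each case the difference between libraries was not tested. Against Reg4-low barcodes, the log2 ratio of the mucus lectin Zg16 was -1.62 in the GFP library and 0.54 in the whole epithelium library. The ribonuclease Ang4 had 0.65 (GFP) and -1.08 (whole epithelium). The mitosis genes Ube2c and Cenpa had 0.61 and 0.50 in the GFP library, and -1.85 and -2.43 in the whole epithelium library. The interferon-induced GTPase gene Iigp1 had 0.97 (GFP) and -0.77 (whole epithelium), and Clec2h -0.89 (GFP) and 0.62 (whole epithelium). Against goblet barcodes with Kit, Chgb had 5.03 (GFP) and -3.92 (whole epithelium), on 1092 UMIs in 27 GFP members and 1 UMI in whole epithelium members.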

How the results depend on the processing

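No paired analysis was possible because each group has 1 library. Of 300 ratios of named genes, 215 kept their sign over all alternatives run, as did 39 of 85 list medians. Among the 131 of these ratios past 2-fold, 121 did. Many named genes were picked for extreme ratios in these same data, which favours a kept sign. With at least 10000 UMIs per barcode, 2 genes were lower over Reg4-low barcodes, and with at most 15% mitochondrial UMIs the GFP share was 4.64%. With at least 100 Muc2 UMIs per 10000, shares were 2.75% (GFP) and 0.335% (whole epithelium), 703 genes were higher in GFP members, 6 higher over Reg4-low and 27 higher over Kit-bearing barcodes, Nos2 turned to -0.23, Sprr1a over Kit-bearing barcodes to -0.069 (whole epithelium) and the defence median to -0.074. With at least 5 Reg4 UMIs the whole epithelium share was 0.615% and 12 genes were lower over Reg4-low. Thinned to 5000 UMIs, the whole epithelium share was 1.47%, 95 genes were higher and 102 lower in GFP members, 36 lower over Reg4-low and 25 lower over Kit-bearing barcodes. There Ang4 over Reg4-low became 0.19 (whole epithelium), and over Kit-bearing barcodes B3galt2 became 1.199 (GFP) and 0.17 (whole epithelium), Nxpe4 -0.67 and Adam18 0.59 (both whole epithelium). Without the deepest barcodes, 254 genes were higher in GFP members and 18 higher over Kit-bearing barcodes. With at least 10 Reg4 UMIs, chosen after seeing the data, shares were 2.599% (GFP) and 0.373% (whole epithelium), 32 genes were lower over Reg4-low, and over Kit-bearing barcodes of the whole epithelium library Muc3 was -0.91 and Gatm -1.36. Without barcodes rich in enteroendocrine markers, also chosen after seeing the data, 10 genes were lower over Reg4-low and Sct was 0.0074. With at least 200 UMIs per gene, counts were 85 higher and 113 lower in GFP members, 5 higher and 0 lower over Reg4-low, and 6 higher and 19 lower over Kit-bearing barcodes. With at least 1 UMI per gene these were 912 and 1310, 40 and 53, and 143 and 83. The cause of these changes was not tested. Subtraction of free RNA was run for genes only, with the mean of barcodes with little mucin as a stand-in, although these include other cell types. The 57 whole epithelium members and their lower depth limit every value of that library.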

Other observations

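Cma1, a chymase gene known from mast cells, was at 17.2 CPM in GFP members (82 UMIs in 23 barcodes) and 7.41 CPM in whole epithelium members (6 UMIs in 4 barcodes). In Reg4-low barcodes it was at 0.345 CPM (GFP) and 0.641 CPM (whole epithelium), and in Reg4-high barcodes with Kit at 23.3 CPM (GFP) and 17.6 CPM (whole epithelium). Of 6 mast cell markers 4 had a UMI in GFP members, among them Mcpt1 with 1, Mcpt2 with 1 and Tpsb2 with 2 UMIs, and 1 had a UMI in whole epithelium members. Cpa3 and Fcer1a were at 0 in members of both libraries. Of the GFP UMIs of Cma1, 62.2% came from 5 members.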
